A study of Mus musculus with 6 samples.

Results

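Messenger RNA levels of 27 genes of cholesterol synthesis and of its control by SREBP2 were examined in renal cortex. The genes were taken by symbol from a list of pathway members, and all 27 were among the 24346 genes with a value in each library. They comprise 19 enzymes in the order of the pathway, 6 genes of the machinery that activates SREBP2, and 2 genes of sterol and phospholipid handling, and do not cover every gene of the pathway. RNA-seq was carried out on renal cortex of 6 C57BL/6 mice, 1 library per mouse, which ate the HF/HC/HS/BA diet, high in fat and cholesterol and with added bile salt, for 8 weeks; the diet is a model of steatohepatitis. The control group (n = 3) received the diet alone. The treated group (n = 3) received the same diet with tofogliflozin, an inhibitor of the sodium-glucose cotransporter SGLT2 of the proximal tubule. Both groups therefore carry the cholesterol load of the diet, and no group on ordinary chow was analysed here. The sources used here do not give the age or sex of the mice or the dose of the drug.

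Cholesterol is built in the cytosol and endoplasmic reticulum from acetyl-CoA, through mevalonate, farnesyl diphosphate, squalene and lanosterol. SREBP2 is a transcription factor held in the endoplasmic reticulum by its escort Scap and the retention proteins Insig1 and Insig2 while sterols are plentiful. When sterols fall, it moves to the Golgi, is cut by the proteases Mbtps1 and Mbtps2 and enters the nucleus, where it raises transcription of most genes of the pathway. In the kidney the proximal tubule takes up much filtered and circulating lipid, and excess dietary cholesterol is known to lower SREBP2 activity in many tissues.

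None of the 27 genes differed between the groups past the threshold (0 of 27; limma on log2(FPKM + 1), Benjamini-Hochberg adjusted p under 0.05 over all 12248 genes tested). FPKM is the level per kilobase of transcript, scaled to the fragments of the library, as the authors deposited it. The threshold was passed by 0.196% of all genes tested for a higher level with tofogliflozin and by 0.0572% for a lower one. At an unadjusted limma p under 0.05 there were 5 of 27 genes (18.5%), against 13.1% of all genes tested. Of these, Hsd17b7, Tm7sf2, Fdft1 and Ebp were higher with tofogliflozin and Mvd was lower. The differences ran from 0.82-fold for Mvd to 1.21-fold for Pmvk on the log2(FPKM + 1) scale, which understates the change of low genes. The 95% interval lay within 1.5-fold in either direction for 25 of the 27 genes (92.6%, against 85.0% of all genes tested) and within 1.25-fold for 13. In bulk tissue, fewer cells of a type and less RNA per cell cannot be told apart.

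The 6 libraries held roughly 7650000 to 9900000 fragments, as read from the spacing of their lowest values. From these and the transcript lengths, the member with the fewest fragments was Pmvk, with about 65.3 in diet replicate 1, for which counting alone gives an error of 12.4%. Mvk also fell below 100 fragments in a library, and 10 of the 27 genes below 300. Proximal tubule markers dominated the tissue, with Slc34a1, a phosphate transporter, at 2128 to 2645 FPKM. Of 9 adrenal cortex markers, which summed to 2.52 to 2.76 FPKM with the diet alone and 2.34 to 3.08 FPKM with tofogliflozin, Cyp11a1, Cyp11b2, Cyp21a1 and Nr5a1 were listed at 0 in every library. Star, at 1.13 ± 0.142 and 1.18 ± 0.0833 FPKM (diet and tofogliflozin), and Akr1b7, at 1.52 ± 0.252 and 1.25 ± 0.480 FPKM, were present in all 6 libraries. Hsd3b1 was at 0.142 to 0.186 FPKM in the treated libraries and listed at 0 in the diet libraries. The 8 proximal tubule markers summed to 4947 to 6123 FPKM with the diet alone and 5286 to 5447 FPKM with tofogliflozin. Of these 8, 4 had a difference above 0 and 0 passed the threshold (limma). At an unadjusted limma p under 0.05 there were 2 of 8 (25%), against 13.1% of all genes tested. Slc5a12 was higher with tofogliflozin, without overlap (log2 difference 0.43), and Slc22a6 was lower (-0.31). The 6 adipocyte markers summed to 0.450 to 7.24 FPKM with the diet alone and 0.256 to 0.401 FPKM with tofogliflozin. The highest sum was that of diet replicate 1, in which Cfd was at 5.03 FPKM. Of the 6, 0 were above the filter, and Lep was listed at 0 throughout. None of the thick limb, distal and collecting duct markers or of the macrophage and lymphocyte markers passed the threshold (0 called in each, limma). At an unadjusted limma p under 0.05 there were 4 of 7 (57.1%) and 1 of 6 (16.7%), against 13.1% of all genes tested. The treated sums lay inside the diet range, but Umod and Cd74 made up most of these sums. Among the 7 duct and limb markers, 6 had a difference above 0, and the sums were 2097 to 2768 and 2421 to 2562 FPKM. In 4 of the 7 (57.1%) every treated library was above every diet library. Groups without overlap in either direction made up 18.5% of all genes tested. Among the 8 macrophage and lymphocyte markers, 6 were above the filter on low values (at least 1 FPKM in at least 3 libraries), all with differences below 0, and the sums were 614 to 3996 and 801 to 1538 FPKM. The part of these markers in the differences of the 27 genes was not tested.

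SREBP2 acts on most of these genes through short elements near the transcription start, so the promoter windows of 4 members that the results return to are given here. They are from RefSeq (GRCm38.p6), which held windows for 23 of the 27 genes, each running 250 bases before to 50 after a transcription start. Each string was searched for on both strands, and capitals mark only the 1 named for that gene. In Hmgcs1, the most abundant member, they mark the sterol regulatory element in the form TCACNCCAC, whose letters there are TCACCCCAC and include the core CACCCCAC. In Insig1 and Hsd17b7 they mark the E-box CACGTG, and in Mvd the NF-Y box CCAAT, which occurs on each strand.
Hmgcs1, chr13:119690101-119690400, plus strand: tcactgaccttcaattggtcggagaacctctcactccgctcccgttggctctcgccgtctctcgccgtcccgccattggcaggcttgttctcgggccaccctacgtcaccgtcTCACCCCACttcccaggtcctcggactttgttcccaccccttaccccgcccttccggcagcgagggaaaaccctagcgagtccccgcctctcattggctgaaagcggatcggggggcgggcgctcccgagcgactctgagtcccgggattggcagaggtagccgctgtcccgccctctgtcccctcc
Insig1, chr5:28071162-28071461, plus strand: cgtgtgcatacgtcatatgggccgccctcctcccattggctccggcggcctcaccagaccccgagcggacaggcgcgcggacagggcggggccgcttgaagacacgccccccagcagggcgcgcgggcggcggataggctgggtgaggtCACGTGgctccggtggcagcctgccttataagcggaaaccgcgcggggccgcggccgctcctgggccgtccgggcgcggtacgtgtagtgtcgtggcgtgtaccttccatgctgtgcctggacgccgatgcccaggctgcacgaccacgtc
Hsd17b7, chr1:169969156-169969455, minus strand: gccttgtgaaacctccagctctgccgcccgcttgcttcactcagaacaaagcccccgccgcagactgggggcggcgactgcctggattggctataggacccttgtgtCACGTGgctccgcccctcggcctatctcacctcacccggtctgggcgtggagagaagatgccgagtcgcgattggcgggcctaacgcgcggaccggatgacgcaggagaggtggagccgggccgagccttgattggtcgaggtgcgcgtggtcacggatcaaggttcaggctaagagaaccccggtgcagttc
Mvd, chr8:122443373-122443672, minus strand: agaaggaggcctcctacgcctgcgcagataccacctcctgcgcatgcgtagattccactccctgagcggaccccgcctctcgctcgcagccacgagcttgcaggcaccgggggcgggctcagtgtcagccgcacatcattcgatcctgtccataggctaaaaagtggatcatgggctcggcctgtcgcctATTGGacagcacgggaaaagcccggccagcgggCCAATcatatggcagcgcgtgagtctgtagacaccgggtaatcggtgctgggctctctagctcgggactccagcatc

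The sterol regulatory element string was found in the windows of 1 of the 23 genes, Hmgcs1, where it begins 137 bases upstream of the start, and in 1.44% of 27025 genes in the table. The core CACCCCAC, which overlaps it, occurred in Acat2 and Hmgcs1 (2 of 23, against 3.30% of genes). The E-box was present in 5 of the 23 genes, namely Hsd17b7, Sc5d, Dhcr7, Scap and Insig1 (21.7%, against 8.09%). The NF-Y box was present in 19 of 23 (82.6%, against 41.1%), and the Sp1 box GGGCGG in 20 of 23 (87.0%, against 38.2%). NF-Y and Sp1 are factors with which SREBPs are known to act. These are matches of letters in short windows, and binding was not measured. The comparison is with all genes of the promoter table, expressed in renal cortex or not, and no matched set of genes was compared.

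Levels are compared between genes in FPKM, which is per length. Hmgcs1, the cytosolic synthase that makes HMG-CoA, stood apart at a mean of 184 FPKM over the 6 libraries. Lpcat3 followed at 66.6, Cyp51 at 60.8, Ebp at 51.7 and Acat2 at 50.3 FPKM. A further 15 genes lay between 10 and 50 FPKM and 7 below 10, with Lss at 4.43 and Mbtps2 at 4.11 FPKM the lowest. The median of the 27 genes was 21.3 FPKM, against 10.5 FPKM for all genes tested, and 19 of the 27 were above that value. Of 26 pairs of neighbours in this order, 24 had overlapping libraries and 2 did not, Hmgcs1 against Lpcat3 and Hsd17b7 against Lss. Enzymes that act in sequence were thus listed far apart in level, with Fdft1 at 7.02, Sqle at 37.7 and Lss at 4.43 FPKM. The level of Fdft1 is uncertain because of a gene overlap described below. Comparison between genes also depends on the transcript lengths that were used, which the sources used here do not give.

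**Figure D1:**
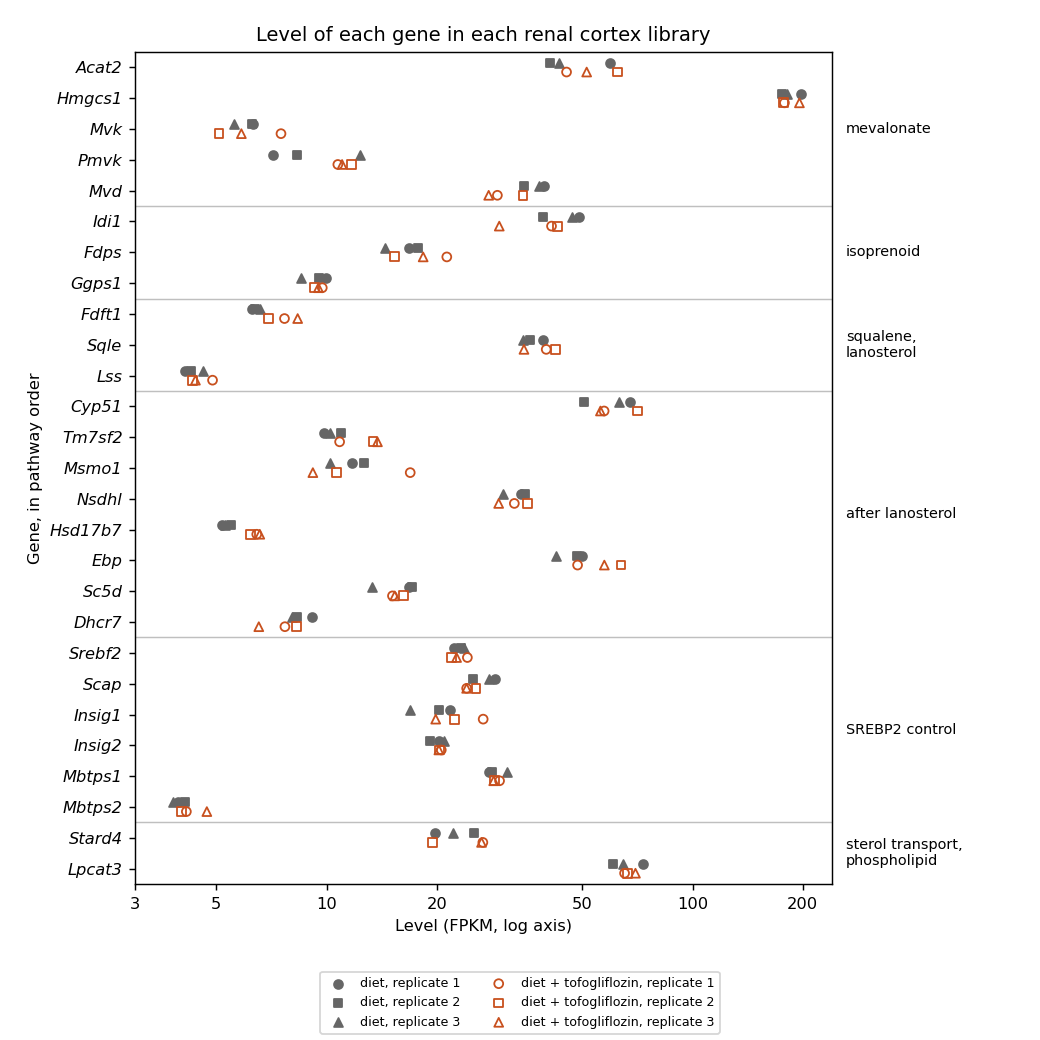
Level of each of the 27 genes (rows, in pathway order; horizontal lines separate the blocks named at the right) in each library, in FPKM on a log axis; filled grey symbols are the 3 diet libraries and open orange symbols the 3 tofogliflozin libraries. The 6 libraries of a gene lie close together relative to the distance between genes, which spans from 4.11 FPKM for Mbtps2 to 184 FPKM for Hmgcs1.

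The first block leads from acetyl-CoA to isopentenyl diphosphate. Hmgcs1 measured 197, 176 and 181 FPKM with the diet alone, against 178, 177 and 196 FPKM in the treated libraries. The groups overlapped, and the log2 difference of -0.01 (95% interval -0.19 to 0.18) covers changes from 0.878 to 1.13-fold. Its promoter window, printed above, holds the string TCACNCCAC. The other windows lacked this exact string, which does not show that those genes lack a sterol regulatory element.

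Mvd, which decarboxylates mevalonate diphosphate, had the smallest p of the 27 genes. Its level measured 39.2, 34.6 and 38.1 FPKM with the diet alone, against 29.3, 34.4 and 27.7 FPKM in the treated libraries. Every treated library was below every diet library, although tofogliflozin replicate 2 and diet replicate 2 nearly met. The log2 difference was -0.29 ± 0.10 (SE; 95% interval -0.51 to -0.07; limma adjusted p = 0.256). Mvd did not pass, and its adjusted p ran from 0.133 to 0.602 over 16 other settings. An exact permutation test of the means (two-sided) gave p = 0.1, the smallest that 3 against 3 allows.

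The kinases before Mvd had estimates above 0, though that of Mvk changed sign with a library left out. Pmvk, phosphomevalonate kinase, was at 9.25 ± 2.73 and 11.2 ± 0.494 FPKM (diet and tofogliflozin; mean ± SD, n = 3 each, as throughout), the largest estimate upward in the list. Its diet libraries were far apart, at 7.15, 8.28 and 12.3 FPKM, and the third lay above all treated libraries. Without diet replicate 3 the log2 difference of Pmvk was 0.48 in place of 0.28, and the limma adjusted p 0.0971 in place of 0.530. Mvk, mevalonate kinase, was at 6.04 ± 0.395 and 6.15 ± 1.24 FPKM (log2 difference 0.01). Acat2, the cytosolic acetoacetyl-CoA thiolase, was at 47.7 ± 10.1 and 53.0 ± 8.63 FPKM, and in each group its libraries ranged widely, from 40.8 to 59.3 and from 45.3 to 62.3 FPKM. Reads of Acat2 can also fit its close copy Acat3, which stood at 21.4 ± 3.38 and 23.6 ± 0.345 FPKM, so the value of Acat2 is uncertain.

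The isoprenoid block leads to the branch point where farnesyl diphosphate is used for sterols, prenylated proteins, dolichol and ubiquinone. Idi1, isopentenyl diphosphate isomerase, was at 44.9 ± 5.13 and 37.8 ± 7.12 FPKM, with a log2 difference of -0.25 (95% interval -0.59 to 0.08; limma adjusted p = 0.512). Tofogliflozin replicate 3, at 29.6 FPKM, was the lowest library by far, the others lying between 39.1 and 48.9 FPKM. Without it the log2 difference of Idi1 was -0.09. Fdps, farnesyl diphosphate synthase, was at 16.3 ± 1.68 and 18.3 ± 3.00 FPKM. Of the exon bases of Fdps, 26.7% overlap the gene model Gm43738 on the same strand, which has no value in the files. Ggps1, which makes geranylgeranyl diphosphate for protein prenylation, was at 9.34 ± 0.724 and 9.50 ± 0.230 FPKM. Idi1 and Fdps, which act one after the other, thus had estimates of opposite sign, and neither passed.

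The squalene and lanosterol block contains the first enzymes committed to sterols. Fdft1, squalene synthase, measured 6.24, 6.38 and 6.56 FPKM with the diet alone, against 7.67, 6.95 and 8.34 FPKM in the treated libraries. Every treated library was above every diet library, and the diet libraries were close together. Their spread was 2.52% of the mean, below the error of about 7.53% that counting alone gives in the library of fewest fragments. That closeness therefore cannot be read as high precision. The log2 difference was 0.22 ± 0.09 (SE; 95% interval 0.02 to 0.43; limma adjusted p = 0.334; exact permutation p = 0.1, two-sided), and it did not pass. Of the annotated exon bases of Fdft1, 18.3% overlap Ctsb on the opposite strand. Ctsb, a lysosomal cathepsin gene, was far more abundant, at 138 ± 3.00 and 135 ± 1.94 FPKM, and the sources used here do not say whether counting used the strand, so the level of Fdft1 is uncertain.

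Sqle, squalene epoxidase, a control point of the pathway, measured 39.0, 36.1 and 34.5 FPKM with the diet alone, against 39.8, 42.1 and 34.6 FPKM in the treated libraries. The groups overlapped (log2 difference 0.08, 95% interval -0.13 to 0.29; limma adjusted p = 0.749). Lss, which closes squalene epoxide to lanosterol, was at 4.33 ± 0.250 and 4.52 ± 0.313 FPKM (log2 difference 0.05).

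The 8 listed enzymes after lanosterol trim methyl groups and move double bonds on the way to cholesterol. Hsd17b7, a ketosteroid reductase of the demethylation steps, measured 5.17, 5.48 and 5.29 FPKM with the diet alone, against 6.45, 6.19 and 6.57 FPKM in the treated libraries. The groups did not overlap, and its spread within groups (SD 0.153 and 0.195 FPKM) was the smallest of the 27 genes on the log2 scale, at 0.037. That spread was 2.87% and 3.05% of the group means. Counting alone gives an error of about 7.40% in its library of fewest fragments. A spread this small therefore cannot be read as high precision. The log2 difference was 0.23 ± 0.08 (SE; 95% interval 0.05 to 0.41; limma adjusted p = 0.274; exact permutation p = 0.1, two-sided), and it did not pass. Over the 16 other settings its estimate ran from 0.21 to 0.26 and its adjusted p from 0.171 to 0.595. Its promoter window, like that of Insig1, holds the E-box shown above.

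Tm7sf2, a sterol reductase acting just after Cyp51, measured 9.82, 11.0 and 10.2 FPKM with the diet alone, against 10.9, 13.4 and 13.8 FPKM in the treated libraries. Tofogliflozin replicate 1 lay within the diet group and the other treated libraries above it (log2 difference 0.27 ± 0.10 SE; limma adjusted p = 0.321). Of the exon bases of Tm7sf2, 12.1% overlap Vps51 on the same strand, which was at 14.6 ± 0.279 and 13.5 ± 0.510 FPKM. Lbr, a nuclear envelope protein with the same reductase activity, is not a member but was on a list of other pathway genes, and was at 12.0 ± 1.10 and 9.70 ± 0.982 FPKM. The 3 treated libraries of Lbr were below its diet libraries (log2 difference -0.28; limma adjusted p = 0.277), so the estimates for Tm7sf2 and Lbr had opposite signs, with neither past the threshold.

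Ebp, the sterol isomerase, measured 49.9, 48.4 and 42.3 FPKM with the diet alone, against 48.5, 63.8 and 57.4 FPKM in the treated libraries. Here too tofogliflozin replicate 1 lay within the diet range (log2 difference 0.26 ± 0.11 SE; limma adjusted p = 0.376). Cyp51, lanosterol demethylase, measured 67.6, 50.4 and 62.8 FPKM with the diet alone, against 57.3, 70.7 and 56.0 FPKM in the treated libraries. The Cyp51 libraries were fully intermixed (log2 difference 0.03, 95% interval -0.27 to 0.33).

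The other enzymes after lanosterol also overlapped between groups. Msmo1, the methylsterol oxidase, was at 11.5 ± 1.24 and 12.2 ± 4.12 FPKM, and tofogliflozin replicate 1, at 16.9 FPKM, was 0.50 above the mean of its 6 libraries on the log2 scale. Nsdhl, a sterol dehydrogenase, was at 33.1 ± 2.43 and 32.5 ± 2.90 FPKM. Sc5d, a sterol desaturase, was at 15.7 ± 2.11 and 15.6 ± 0.597 FPKM. Dhcr7, a sterol reductase at the end of the pathway, was at 8.50 ± 0.581 and 7.50 ± 0.887 FPKM (log2 difference -0.16, 95% interval -0.40 to 0.07).

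**Figure D2:**
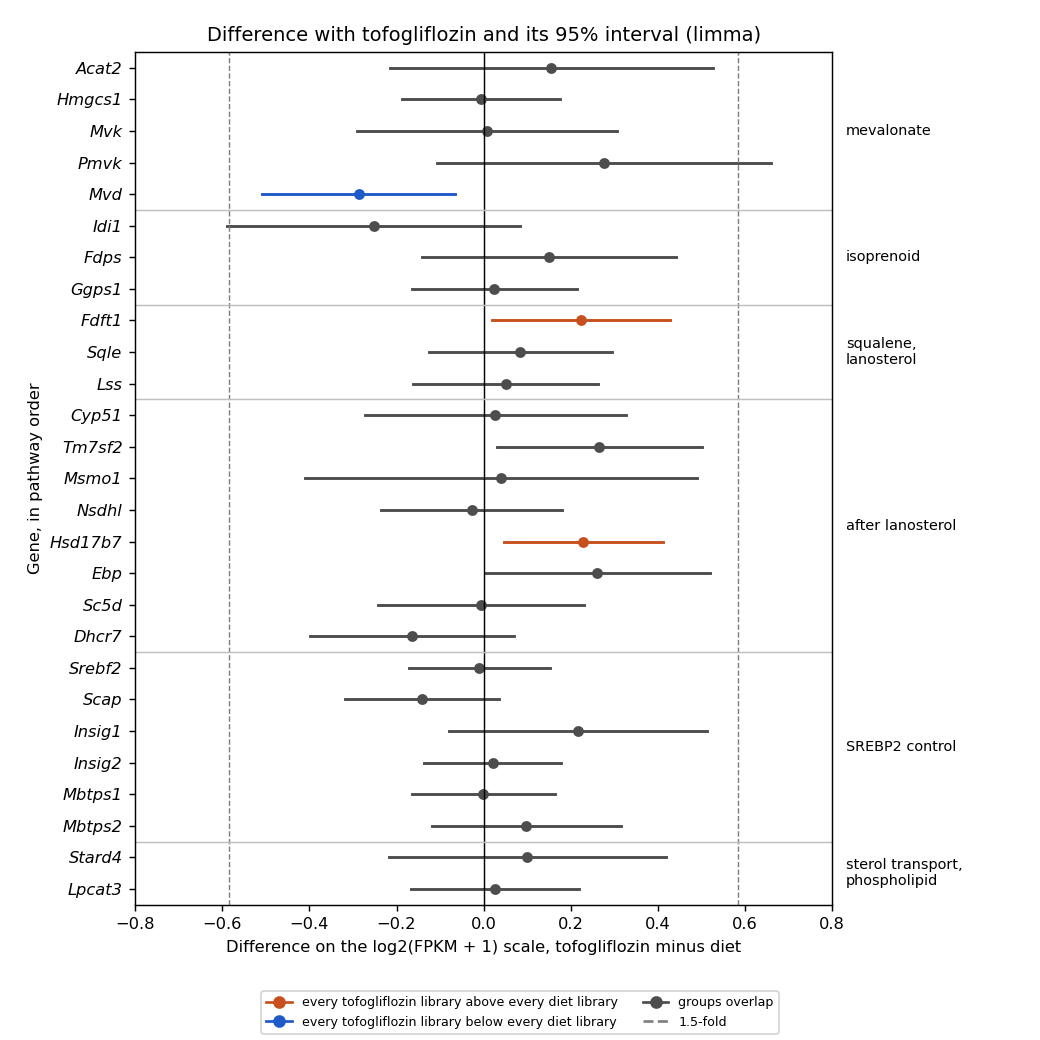
Difference between groups for each gene (tofogliflozin minus diet, on the log2(FPKM + 1) scale) with its 95% interval from limma; dashed lines mark 1.5-fold and colours mark genes whose groups do not overlap. The intervals of Pmvk and Idi1 cross a dashed line and the other 25 stay inside; Fdft1 and Hsd17b7 are coloured as higher and Mvd as lower.

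As a block, the genes of SREBP2 control had the smallest median spread, though Insig1 did not share it. The median SD within groups of the 6 control genes was 0.069 on the log2 scale, against 0.133 for the 19 enzymes and 0.125 for all genes tested. That of Insig1 was 0.195, above all of these medians. Srebf2, which encodes SREBP2, measured 22.4, 23.3 and 23.7 FPKM with the diet alone, against 24.2, 22.0 and 22.7 FPKM in the treated libraries. The groups overlapped, and the 95% interval of the log2 difference, -0.17 to 0.15, covers changes from 0.888 to 1.11-fold. Messenger RNA does not measure cleavage of SREBP2, the step at which sterols act.

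Scap, the sterol-sensing escort, measured 28.9, 25.2 and 27.8 FPKM with the diet alone, against 24.1, 25.6 and 24.1 FPKM in the treated libraries. Only tofogliflozin replicate 2 overlapped the diet group, and only with diet replicate 2 (log2 difference -0.14, 95% interval -0.32 to 0.03; limma adjusted p = 0.483). Insig1, itself a target of SREBP2, measured 21.8, 20.2 and 16.9 FPKM with the diet alone, against 26.8, 22.4 and 19.9 FPKM in the treated libraries. Its estimate was 0.22 ± 0.13 (SE; 95% interval -0.08 to 0.51; limma adjusted p = 0.523), and tofogliflozin replicate 3 lay below diet replicates 1 and 2. Insig2, the less sterol-dependent relative, measured 20.2, 19.1 and 21.0 FPKM with the diet alone, against 20.6, 20.4 and 20.3 FPKM in the treated libraries. With a highest library 1.10 times the lowest, Insig2 was the steadiest of the 27 genes.

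The proteases also overlapped between groups. Mbtps1, the first to cut SREBP2, was at 29.1 ± 1.76 and 29.0 ± 0.588 FPKM, and Mbtps2, the second, at 3.94 ± 0.149 and 4.29 ± 0.367 FPKM. Of the exon bases of Mbtps2, 28.4% overlap Yy2 on the same strand, whose mean was 0.402 FPKM. Stard4, a cytosolic sterol carrier and SREBP2 target, was at 22.4 ± 2.79 and 24.2 ± 4.12 FPKM. Its treated libraries measured 26.7, 19.5 and 26.5 FPKM and all lay outside the diet range of 19.8 to 25.4 FPKM, 2 above it and 1 below. Lpcat3, a phospholipid acyltransferase induced by the sterol receptor LXR, was at 66.0 ± 6.36 and 67.1 ± 2.41 FPKM (log2 difference 0.03, 95% interval -0.17 to 0.22). Genes on the opposite strand overlap 10.2% of the exon bases of Lpcat3 (Emg1), 12.1% of those of Hmgcs1 (Gm48342) and 13.2% of those of Scap (5830462I19Rik).

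**Figure D3:**
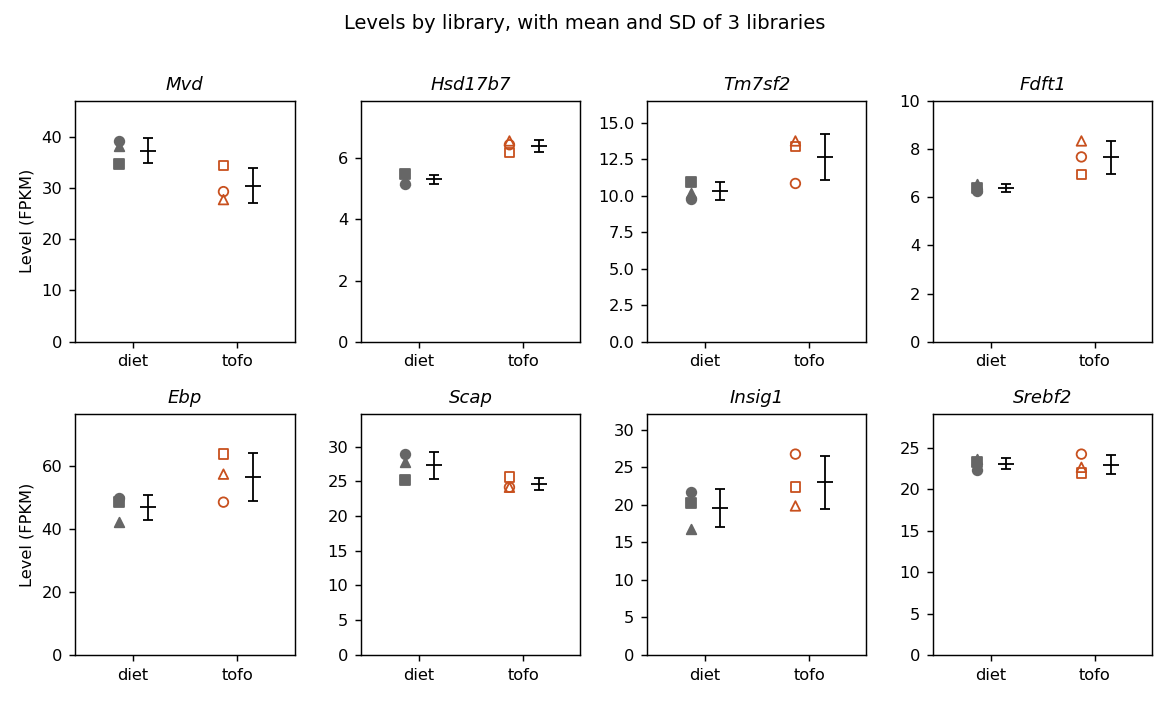
Levels in FPKM (vertical axes from 0) of the 6 genes of smallest p and of Insig1 and Srebf2, with the 3 diet libraries as filled and the 3 tofogliflozin libraries as open symbols (circle, square and triangle for replicates 1, 2 and 3) and the mean and SD of each group beside them. Mvd, Hsd17b7 and Fdft1 have no overlap between groups, while Srebf2 lies between 22.0 and 24.2 FPKM throughout.

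Across the list, 18 of 27 genes had a difference above 0 (66.7%, against 49.7% of all genes tested). That count was 22 with upper-quartile scaling of the libraries, for which the share of all genes tested is not given here. The median difference was 0.03 on the log2 scale, against -0.00075 for all genes tested, and the median size of a difference was 0.098 against 0.102. The groups did not overlap for 3 of 27 genes (11.1%), against 18.5% of all genes tested. With upper-quartile scaling they did not overlap for 5, but the share of all genes in that setting is not given here. By block, 3 of 5 mevalonate genes, 2 of 3 isoprenoid genes, 3 of 3 squalene and lanosterol genes, 5 of 8 later enzymes, 3 of 6 control genes and 2 of 2 handling genes had a difference above 0.

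No library was highest, or lowest, for most of the genes. Diet replicate 1 and tofogliflozin replicate 1 were each the highest library for 7 of the 27 genes, and tofogliflozin replicate 2 for 5. Among all genes tested, these libraries were the highest for 18.6%, 14.2% and 12.6%. Diet replicate 3 was the lowest for 7, diet replicate 1 and tofogliflozin replicate 3 for 6 each, and tofogliflozin replicate 1 for 0. Over all genes tested, diet replicate 3 was the lowest for 16.0%, diet replicate 1 for 17.2% and tofogliflozin replicate 3 for 17.0%. Tofogliflozin replicate 1, the deepest library, was the lowest for 14.4% of all genes tested. It was the highest for Msmo1, Insig1, Fdps, Mvk, Lss, Srebf2 and Stard4, whereas Acat2, Cyp51, Ebp, Sqle and Nsdhl were highest in tofogliflozin replicate 2. The median deviation of the 27 genes from their own means lay between -0.08 in diet replicate 3 and 0.04 in diet replicate 1 on the log2 scale, and both of these extremes were diet libraries.

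**Figure D4:**
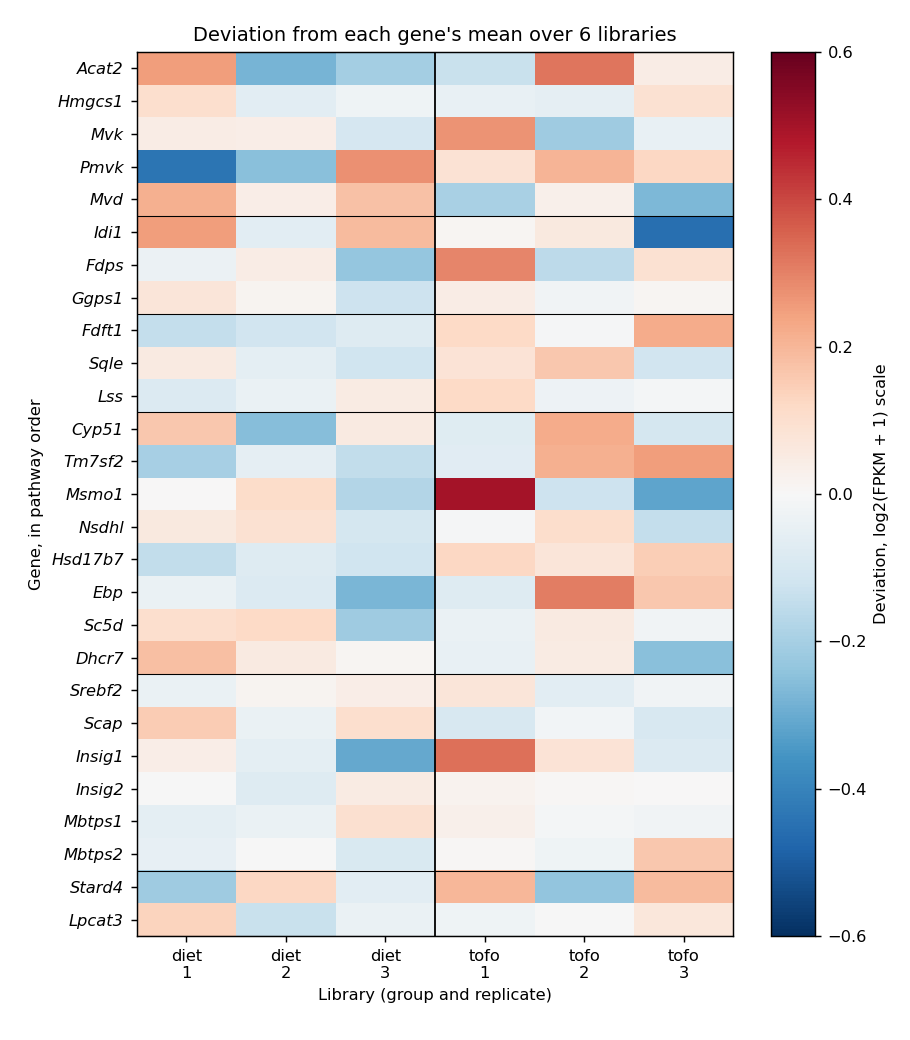
Deviation of each gene (rows, in pathway order) from its mean over the 6 libraries (columns; tofo, diet with tofogliflozin), on the log2(FPKM + 1) scale; red is above and blue below the mean. No column is of a single colour, and the extremes are Msmo1 in tofogliflozin replicate 1 (0.50), Idi1 in tofogliflozin replicate 3 (-0.45) and Pmvk in diet replicate 1 (-0.44).

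Other genes tied to the pathway were taken from lists. Of 21 further genes of sterol and isoprenoid metabolism, 1 fell past the threshold (limma) and 0 rose, against 0.0572% and 0.196% of all genes tested. A difference above 0 was found in 6 (28.6%, against 49.7% of all genes tested), with a median of -0.08. Unadjusted limma p was under 0.05 for 3 of the 21 (14.3%), near the 13.1% of all genes tested. Among those that did not pass, Rabggta, a subunit of the enzyme that attaches geranylgeranyl groups to Rab proteins, was at 40.9 ± 4.64 and 33.1 ± 0.589 FPKM (log2 difference -0.29; limma adjusted p = 0.228). Acss2, a cytosolic acetyl-CoA synthetase, was at 142 ± 11.7 and 125 ± 4.02 FPKM (log2 difference -0.18; limma adjusted p = 0.383). Lbr, Rabggta and Acss2 each had all treated libraries below all diet libraries, and groups without overlap made up 4 of the 21 genes (19.0%), near the 18.5% of all genes tested.

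Of 16 genes of sterol turnover and degradation in the endoplasmic reticulum, 15 were above the filter on low values (Ch25h was not) and none passed, with 5 above 0. At an unadjusted limma p under 0.05 there was 1 of 15 (6.67%), below the 13.1% of all genes tested. Cyp27a1, which oxidises the cholesterol side chain, was at 30.4 ± 4.52 and 36.5 ± 2.31 FPKM (log2 difference 0.26; limma adjusted p = 0.379). Rnf145, a sterol-responsive ubiquitin ligase, was at 41.3 ± 2.09 and 36.0 ± 3.83 FPKM (log2 difference -0.20), and Osbp, an oxysterol-binding protein, at 23.3 ± 1.51 and 21.6 ± 0.772 FPKM.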

How the data were processed

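Libraries were made from renal cortex RNA with a kit for strand-specific mRNA sequencing, per the labels' protocols. The authors deposited 1 table per library with an FPKM value for each of 24346 gene symbols. The submitters' processing notes name TopHat2 2.1.1, Bowtie2 2.2.8, SAMtools 0.1.18, Cuffdiff 2.2.1 and mm10, with no role or order. Annotation, strand use in counting and any scaling across libraries: not given in the sources used here. Upper quartiles were similar, between 10.5 and 10.6 FPKM.

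The labels supplied groups (3 mice each) and replicate numbers. The filter on low values asked for 1 FPKM or more in 3 or more of the 6 libraries (12248 genes), and all 27 members passed. Groups were compared on log2(FPKM + 1) with limma 3.58.1 in R 4.3.3 (mean-variance trend, two-sided), p-values being adjusted by Benjamini-Hochberg across every tested gene, threshold 0.05. The files hold no counts. In 1586 genes of very low level throughout, 82.8% of values came within 1% of whole multiples of the smallest. With transcript lengths this put diet replicate 1 at about 7650000 fragments (quartiles 7020000 and 7960000), an estimate. Simulated data for this comparison held 12248 genes, 200 of them changed, drawn from genes above a low level, with independent noise. The fit found 49.3% of genes with a log2 change of 0.5 and 91.0% of those with 1. Smaller changes, such as the estimates of all 27 members, were not simulated, so these shares do not cover them. Gene overlaps are from GENCODE on GRCm38, the build of the files, and promoters from RefSeq on GRCm38.p6.

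All members are named, with values per library for the 6 of smallest p and 7 fixed genes, up to 3 genes of smallest p come from each list, and 1 gene that the rule selects is not reported here, though counts include it. Acat3, Ctsb and Vps51 were chosen after their values were seen. The members and lists were chosen with earlier results of these data known. Alternatives covered the pseudocount, the filter (none, or stricter), other scalings, the replicate number as a block, other variance models, array weights, another threshold and leaving out each library.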

Additional observations from a re-analysis of the deposited data

How the results depend on the processing

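No member passed the threshold in any of the 16 other settings (0 of 27 in each, or 0 of 25 with a filter at 5 FPKM, which leaves out Lss and Mbtps2). The smallest adjusted p of a member in any setting was 0.0971, for Pmvk without diet replicate 3. Of the members, 16 kept the sign of their difference in all of them, including Mvd, Fdft1, Tm7sf2, Hsd17b7, Ebp, Scap and Insig1. The other 11 had main estimates of at most 0.04 on the log2 scale. With upper-quartile scaling the sign turned for Hmgcs1 (0.0077), Sc5d (0.0074), Srebf2 (0.0038) and Mbtps1 (0.013), with quantile normalization for Srebf2 (0.0017), and with array weights for Cyp51 (-0.058), Srebf2 (0.0095), Mbtps1 (0.0063) and Lpcat3 (-0.020). With a library left out, estimates ran from -0.052 to 0.042 for Hmgcs1, -0.125 to 0.117 for Mvk, -0.032 to 0.067 for Ggps1, -0.094 to 0.114 for Cyp51, -0.200 to 0.208 for Msmo1, -0.088 to 0.037 for Nsdhl, -0.115 to 0.054 for Sc5d, -0.048 to 0.020 for Srebf2, -0.013 to 0.049 for Insig2, -0.029 to 0.047 for Mbtps1 and -0.034 to 0.099 for Lpcat3. Members whose groups do not overlap numbered 5 with upper-quartile scaling and 5 to 9 with any 1 of the 6 libraries left out, where fewer libraries make separation easier. The share of all genes tested in these settings is not given here. These counts therefore cannot be set against the 18.5% of the main setting. The count of all genes past the threshold was 31. It was 1 with no filter, which tests more genes and also brings low genes into the mean-variance trend. It was 20 with a filter at 5 FPKM, 61 with a robust trend, 123 with array weights and 152 at a threshold of 0.1. Why these counts moved was not tested. Leaving out diet replicate 1, 2 or 3 gave 9, 66 and 57, and tofogliflozin replicate 1, 2 or 3 gave 4, 18 and 2; the cause was not tested. The replicate block gave 26 genes, of which 0 were members; same-numbered libraries did not deviate together (correlations across genes -0.05, -0.06 and 0.05), and the block changed no call of a member. Depth limits Pmvk and Mvk most.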

Other observations

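Genes of the neighbouring lipid programmes were described in the same fit. Of 9 genes of the LXR response, 4 had a difference above 0 and 0 passed the threshold (limma; 1 of 9 at an unadjusted p under 0.05, or 11.1%, against 13.1% of all genes tested). Scd1, a fatty acid desaturase, was at 25.2 ± 4.69 FPKM in the diet group and 17.7 ± 2.30 FPKM with tofogliflozin (log2 difference -0.48; limma adjusted p = 0.223), whereas its relative Scd2 was at 17.8 ± 2.80 and 21.8 ± 2.83 FPKM (log2 difference 0.28; limma adjusted p = 0.406). Abca1, the cholesterol exporter, was at 4.49 ± 0.881 and 5.37 ± 0.684 FPKM. Of 7 lipogenic genes, 3 had a difference above 0 and 0 passed (limma; 0 at an unadjusted p under 0.05). Elovl6, an elongase of saturated fatty acids, was at 2.85 ± 0.618 and 3.94 ± 0.814 FPKM (log2 difference 0.36; limma adjusted p = 0.397). Fasn, fatty acid synthase, was at 8.29 ± 0.724 and 7.19 ± 0.880 FPKM (log2 difference -0.19; limma adjusted p = 0.509), and Me1, the cytosolic malic enzyme, at 205 ± 31.2 and 176 ± 21.7 FPKM (log2 difference -0.21; limma adjusted p = 0.525), so the estimates within the list differed in sign and none passed.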
